A study of Mus musculus with 32 samples.

Results

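Troponins and tropomyosins are the regulatory proteins of the thin filament of striated muscle. The 10 genes described here are the table entries whose Ensembl identifiers map to Tnnt1, Tnnt2, Tnnt3, Tnni1, Tnni2, Tnnc1, Tnnc2, Tpm1, Tpm2 and Tpm3, and each symbol mapped to 1 of the 55487 genes in the table. In each of 16 mice, polyadenylated RNA was sequenced from 2 muscles of the left leg, the medial gastrocnemius, made mostly of fast fibres, and the soleus, rich in slow fibres. The mice belonged to 4 genotypes of 4 mice each. They were controls, mice with myofibre-specific knockout (KO) of Acvr1b, mice with myofibre-specific KO of Tgfbr1, and mice with KO of both genes, called double KO. Acvr1b and Tgfbr1 are type I receptors of activins, myostatin and TGF-β. Tamoxifen given at the age of 6 weeks triggered the deletion, and muscles were taken 3 months later. The Cre line, the strain and whether the controls received tamoxifen are not given in the sources used here. Only the myofibres carried the deletion, whereas RNA came from the whole muscle with all its cell types.

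When calcium enters the cytosol of a muscle fibre, troponin C binds it and troponin I releases its hold on actin. Troponin T passes the movement on to tropomyosin, which changes its position on the filament and frees the myosin-binding sites. Each of these subunits is made from separate genes for fast and slow fibres, so that the isoforms in a muscle follow its fibre types. Tnnt1 and Tnni1 are the slow skeletal forms of troponin T and I, and Tnnc1 is the form of troponin C shared by slow fibres and heart. Tnnt3, Tnni2 and Tnnc2 are the fast forms, and Tnnt2 is the cardiac troponin T. Of the tropomyosins, Tpm1 is the α form of fast fibres and heart, Tpm3 the slow α form, and Tpm2 the β form found in fast and slow fibres.

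The genes lie on 7 chromosomes (GRCm38), some of them in pairs. Tnni1 (ENSMUSG00000026418, chr1:135779434-135810989) ends 25.4 kb before Tnnt2 (ENSMUSG00000026414, chr1:135836354-135852260). Tnni2 (ENSMUSG00000031097, chr7:142441808-142444410) and Tnnt3 (ENSMUSG00000061723, chr7:142498836-142516009) are 54.4 kb apart. Tnnt1 (ENSMUSG00000064179, chr7:4504570-4516382) lies 1.9 kb from the cardiac troponin I gene Tnni3. The others are Tnnc1 (ENSMUSG00000091898, chr14:31208312-31211729), Tnnc2 (ENSMUSG00000017300, chr2:164777161-164779967), Tpm1 (ENSMUSG00000032366, chr9:67022590-67049406), Tpm2 (ENSMUSG00000028464, chr4:43514711-43523765) and Tpm3 (ENSMUSG00000027940, chr3:90072649-90100902). Tpm2 is on the same chromosome as the targeted Tgfbr1, 3.83 Mb away.

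The 4 slow genes Tnnt1, Tnni1, Tnnc1 and Tpm3 moved together in the libraries, so the 250 bases before their start sites are shown, with that of the fast gene Tnnc2 beside them. The sequences are from RefSeq (GRCm38.p6), run 5′ to 3′ in the direction of the gene and end at the base before the start. Capitals mark an E-box (CANNTG, bound by myogenic regulators), an MCAT element (CATTCC, bound by TEAD factors) or TATAAA, on either strand.
Tnnt1, chr7:4515976-4516225, minus strand: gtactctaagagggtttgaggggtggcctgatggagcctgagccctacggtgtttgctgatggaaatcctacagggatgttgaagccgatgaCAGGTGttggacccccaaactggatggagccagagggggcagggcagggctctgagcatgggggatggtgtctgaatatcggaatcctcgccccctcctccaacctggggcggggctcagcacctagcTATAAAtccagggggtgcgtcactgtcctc
Tnni1, chr1:135799171-135799420, plus strand: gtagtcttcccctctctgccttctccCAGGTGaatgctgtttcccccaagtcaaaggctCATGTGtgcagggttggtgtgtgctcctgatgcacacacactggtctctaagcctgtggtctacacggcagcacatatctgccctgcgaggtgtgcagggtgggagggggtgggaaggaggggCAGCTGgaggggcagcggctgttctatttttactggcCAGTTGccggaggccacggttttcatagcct
Tnnc1, chr14:31208062-31208311, plus strand: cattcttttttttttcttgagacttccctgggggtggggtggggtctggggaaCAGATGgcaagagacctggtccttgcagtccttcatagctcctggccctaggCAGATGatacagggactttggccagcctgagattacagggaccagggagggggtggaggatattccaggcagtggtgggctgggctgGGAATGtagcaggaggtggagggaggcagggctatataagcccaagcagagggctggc
Tpm3, chr3:90072401-90072650, plus strand: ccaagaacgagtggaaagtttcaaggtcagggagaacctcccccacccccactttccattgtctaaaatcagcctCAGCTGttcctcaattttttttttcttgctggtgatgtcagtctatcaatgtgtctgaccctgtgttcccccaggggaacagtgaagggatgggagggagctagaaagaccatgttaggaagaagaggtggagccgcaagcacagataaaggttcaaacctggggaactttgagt
Tnnc2, chr2:164779735-164779984, minus strand: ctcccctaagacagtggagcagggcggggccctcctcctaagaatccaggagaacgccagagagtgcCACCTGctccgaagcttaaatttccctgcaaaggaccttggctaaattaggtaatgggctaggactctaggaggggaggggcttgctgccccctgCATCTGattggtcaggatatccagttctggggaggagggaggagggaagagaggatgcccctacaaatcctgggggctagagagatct

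The 5 windows shared no marked element other than the E-box, which 66.2% of the 32851 RefSeq windows of this length also hold. Tnni1 had 4 E-boxes, Tnnt1 and Tpm3 had 1 each, and Tnnc1 and Tnnc2 had 2 each. TATAAA stood at −30 in Tnnt1 and in no other of the 5, against 12.4% of all windows. The MCAT element stood at −58 in Tnnc1, and among the members also at −56 in Tpm1 and −27 in Tnnt2, against 12.6% of all windows. CAGACA, a letter string bound by SMAD proteins, began at −90 in Tnnt1 and at −124 in Tpm3, against 17.1% of all windows. The MEF2 and CArG consensus elements and MEF3 (TCAGGTT) were also searched on both strands and matched no window of the 8 members listed in that table, against 0.508%, 1.47% and 3.49% of all windows. The first of the listed start sites was used for Tnni1, Tpm3 and Tnnt2.

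Total counts per library ran from 16535118 to 54456450, and the 10 genes together held between 2.75% and 5.28% of a library. Acvr1b mRNA was lower in the groups that carry its deletion, at 25.6 ± 1.6 CPM in the gastrocnemius of Acvr1b KO and 17.5 ± 4.10 in double KO against 106.5 ± 10.03 in controls (SD, n = 4). Tgfbr1 mRNA was not lower where Tgfbr1 was targeted, at 29.5 ± 3.33 CPM in Tgfbr1 KO and 47.8 ± 7.38 in double KO against 28.5 ± 6.75 in controls, so its level over the whole gene does not check the label. All 10 skeletal fibre markers examined were detected in both muscles. The 9 heart markers summed to 122.6 to 188.8 CPM in control gastrocnemius and 1216 to 1510 in control soleus. Nearly all of it was Myh6 (means of 156.5 and 1405 CPM), whose counts may share reads with other myosins, which was not measured. Nkx2-5 was at 0 in every library, and Tnni3 stayed between 0 and 0.635 CPM. In 4 libraries the genes of the whole transcriptome correlated less with their group than in all others, where the median r was 0.986 or more: gastrocnemius control 1 (0.979), gastrocnemius double KO 1 (0.983), soleus Acvr1b KO 1 (0.973) and soleus double KO 1 (0.929). The 2 double KO libraries among them came from the same mouse. The comparisons were also run without them. The labels name no cohort. The animal numbers of the double KO mice lie apart from those of the others, and those of the controls lie above those of the single KO mice. A difference of cohort, if there was one, therefore cannot be told apart from genotype in any comparison with controls or double KO mice.

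In control mice the 2 muscles differed in every member. Levels are CPM, the counts scaled to library size, as mean ± SD over 4 libraries. Tnnt1 had 2809 ± 184 CPM in the soleus and 253 ± 64.9 in the gastrocnemius, a log2 difference of 3.47 (SE 0.18). Tnni1 had 850.3 ± 35.2 and 67.9 ± 19.5 CPM (log2 3.65, SE 0.28), Tnnc1 had 1487 ± 107 and 118 ± 21.1 (log2 3.65, SE 0.25), and Tpm3 had 2842 ± 192 and 242 ± 49.4 (log2 3.55, SE 0.17). The 4 slow genes were thus 11.1 to 12.6 times as high in the soleus, within 0.18 of each other on the log2 scale. The fast genes were lower there by a smaller factor. Their log2 differences were −1.43 (SE 0.13) for Tnnt3, −1.20 (SE 0.14) for Tnni2, −1.31 (SE 0.17) for Tnnc2 and −1.87 (SE 0.17) for Tpm1. Tpm2 was 1.92 times as high in the soleus (log2 0.94, SE 0.17) and the cardiac Tnnt2 3.03 times (log2 1.6, SE 0.32). All 10 genes passed edgeR's quasi-likelihood test, with Benjamini-Hochberg adjusted p over all genes between 7.12e-16 and 0.00016, and no library of one muscle overlapped the other in any of them. Of all 18726 genes tested, 40.4% passed, and 38.4% had no overlap. Other slow-fibre genes (14 of 15 higher, 1 lower, median log2 3.16) and other fast-fibre genes (2 higher and 12 lower of 15, median −1.72) lay on the same sides, beside a median of 0.07 over all genes.

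Per kilobase of exon, the fast forms outweighed the slow ones in both muscles. In the control gastrocnemius, Tnnt3 was the most abundant (13530 ± 2315 CPM per kb), followed by Tnnc2 (10200 ± 1468), whose libraries overlapped those of Tnnt3. Tnni2 (4781 ± 458), Tpm1 (2381 ± 357) and Tpm2 (1712 ± 248) came next, each apart from its neighbour. Tnnt1 (115 ± 29.4) and Tnnc1 (114 ± 20.2) overlapped, and Tpm3 (39.8 ± 8.12) and Tnni1 (18.9 ± 5.42) lay below them. Tnnt2 was last at 0.389 ± 0.0498. In the control soleus, Tnnt3 (5012 ± 465), Tnnc2 (4107 ± 570) and Tpm2 (3286 ± 219) led, and Tnnt3 and Tnnc2, and Tnnc2 and Tpm2, were not separated by their libraries. Tnnc1 (1429 ± 103) and Tnnt1 (1275 ± 83.3) overlapped with each other further down, and Tnni1 (236 ± 9.77) was above Tnnt2 alone. As shares of their family per kb, the slow forms made up 20.4 ± 2.28% of troponin T, 10.3 ± 1.27% of troponin I and 26 ± 3.19% of troponin C in the control soleus. In the control gastrocnemius these shares were 0.838 ± 0.151%, 0.397 ± 0.124% and 1.11 ± 0.220%. The table's gene lengths join the exons of all transcripts, so a level per kb is too low for a gene whose muscle transcript is shorter than that sum.

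**Figure D1:**
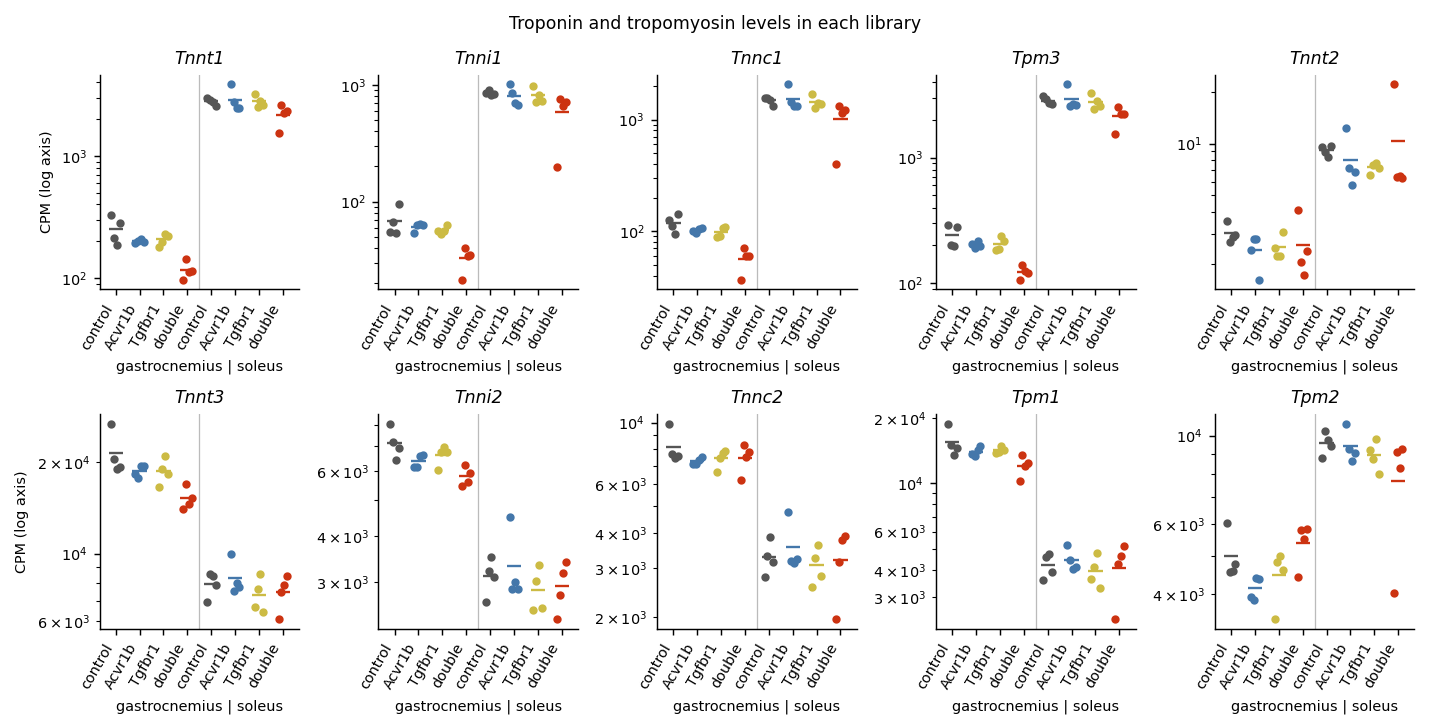
Level of each member in the 32 libraries (CPM, log axis), with a bar for the mean of each group of 4. Gastrocnemius is on the left of each panel and soleus on the right, and the slow genes of the upper row lie lowest in the gastrocnemius of double KO mice, with Tnnt1 between 97.02 and 141.7 CPM.

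In the gastrocnemius, every slow isoform was lower in mice that had lost both receptors, at 0.46 to 0.51 times the control level. Tnnt1, which ties slow troponin to tropomyosin, measured 97.02, 141.7, 113 and 115 CPM in double KO mice 1 to 4 against 329.7, 214, 186 and 281 CPM in controls. The highest double KO library lay below the lowest control. The log2 fold change was −1.11 (SE 0.15, adjusted p = 5.97e-05, edgeR quasi-likelihood test). Tnni1, the slow inhibitory subunit, measured 21.5, 40.4, 34 and 35.1 CPM against 54.9, 67.2, 53.8 and 95.7, again without overlap (log2 −1.04, SE 0.17, adjusted p = 0.000451). Tnnc1, the slow calcium sensor, measured 36.8, 70.6, 59.9 and 59.3 CPM against 126, 111, 93.3 and 143, without overlap (log2 −1.05, SE 0.15, adjusted p = 0.00013). The slow tropomyosin Tpm3 measured 107, 140.2, 124 and 121 CPM against 289, 201, 198 and 281 (log2 −0.97, SE 0.13, adjusted p = 4.5e-05). Here too every double KO library lay below every control. In all 4 genes double KO 1 was the lowest of the 16 libraries, and the log2 changes lay within 0.14 of each other.

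The fast isoforms differed less from control, and not all of them passed the test. Fast troponin T, Tnnt3, measured 14083, 16974, 14568 and 15198 CPM in double KO against 26839, 20485, 19067 and 19294 in controls, with no overlap (log2 −0.48, SE 0.11, adjusted p = 0.00456). Control 1 was well above the other 3 controls, and its mitochondrial genes held 25.99% of counts against 10.35 to 13.9% in them. The part of that share in its levels was not tested. Fast troponin I, Tnni2, measured 5468, 6224, 5602 and 5912 CPM against 8072, 7183, 6433 and 6940.2 (log2 −0.29, SE 0.08, adjusted p = 0.0152), also without overlap. Tpm1 measured 10210.0, 13457, 11974 and 12411 CPM against 18799, 14955, 13520.0 and 14500.0, where the highest double KO library was just under the lowest control (log2 −0.35, SE 0.10, adjusted p = 0.020). Fast troponin C, Tnnc2, ranged from 6229 to 8272 CPM against 7442 to 9913 with overlapping groups, and did not pass (log2 −0.12, SE 0.10, adjusted p = 0.441). Tpm2 measured 4422, 5810, 5500.4 and 5836 CPM against 6051, 4539, 4579 and 4749, so that 3 of the 4 double KO libraries were above 3 of the 4 controls (log2 0.12, SE 0.12, adjusted p = 0.506). Cardiac Tnnt2 was near the limit of detection, with 68 to 126 counts per library in double KO and 78 to 134 in controls (log2 −0.23, SE 0.24, adjusted p = 0.533).

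In all, 7 of the 10 members were called, all of them lower, where 9.59% of the 17536 genes tested were called lower and 11.4% higher, 20.9% in all. The same 7 had no overlap between the groups, as had 21.3% of all genes. The median log2 fold change was −0.42 over the members and 0.0004 over all genes. Whole-muscle RNA cannot separate fewer slow fibres from less slow-isoform RNA per fibre. Without the libraries that stand apart (2 in this comparison), the slow genes kept log2 changes of −0.88 for Tnnt1, −0.98 for Tnni1, −0.87 for Tnnc1 and −0.81 for Tpm3 (largest adjusted p = 0.000332). Tnnt3 (−0.33, adjusted p = 0.00905) and Tnni2 (−0.21, adjusted p = 0.0373) remained called. Tpm1 then stood at −0.18 (adjusted p = 0.0586), no longer past the threshold, and Tpm2 was called higher at 0.31 (adjusted p = 0.0343). Tpm1 (adjusted p = 0.117 and 0.0519) and Tnni2 (0.101 and 0.0518) also missed the threshold in a fit restricted to the 2 groups and without double KO 3.

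**Figure D2:**
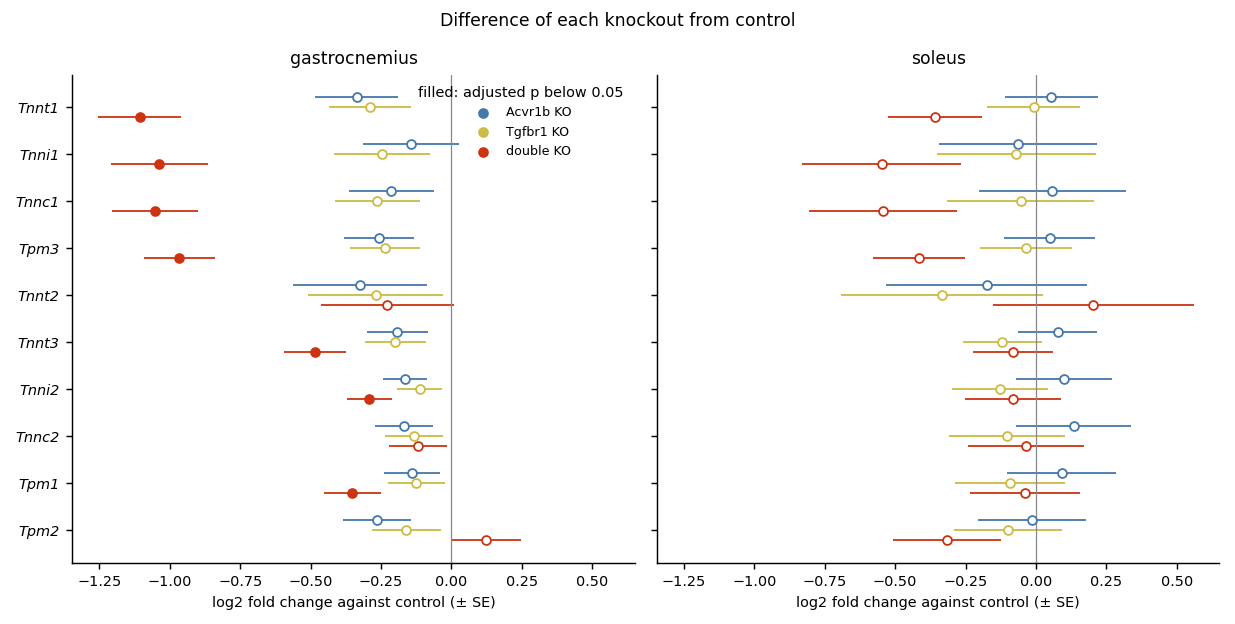
Log2 fold change of each member against control (± SE) for the 3 knockouts, in gastrocnemius on the left and soleus on the right, with filled points for an adjusted p below 0.05. Filled points are seen only for double KO in the gastrocnemius, with the 4 slow genes furthest from 0 at −0.97 to −1.11.

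The balance between isoforms also differed. Tpm2 supplied 48.8, 48.8, 50.3 and 50.9% of tropomyosin per kb in double KO gastrocnemius, against 41.4, 40.02, 42.6 and 41.7% in controls. The Tpm1 share was 49.7 ± 1.05% against 57.6 ± 1.13% in controls, with no overlap in either gene, and the Tpm3 share 0.544 ± 0.0284% against 0.963 ± 0.149%. Per kb of the table's lengths, Tpm1 and Tpm2 had close values in double KO (1852 ± 209 and 1854 ± 228 CPM per kb), whereas Tpm1 was above Tpm2 in every control library. That closeness rests on the lengths. Before division by length the levels were 12013 ± 1354 and 5392 ± 664 CPM in double KO, against 15443 ± 2316 and 4979.5 ± 720.2 in controls, and the Tpm2 share of tropomyosin counts was 30.7% against 24.1%. Both share values are ratios within a library, so they do not depend on the scaling between libraries, and the control 1 library that stood high in level lay inside the other controls in its Tpm2 share. The slow share was 0.545 ± 0.0427% of troponin T (controls 0.838 ± 0.151%), 0.233 ± 0.0473% of troponin I (controls 0.397 ± 0.124%) and 0.573 ± 0.0860% of troponin C (controls 1.11 ± 0.220%), and none of the 3 overlapped with the controls. Shares are descriptions without a test.

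**Figure D3:**
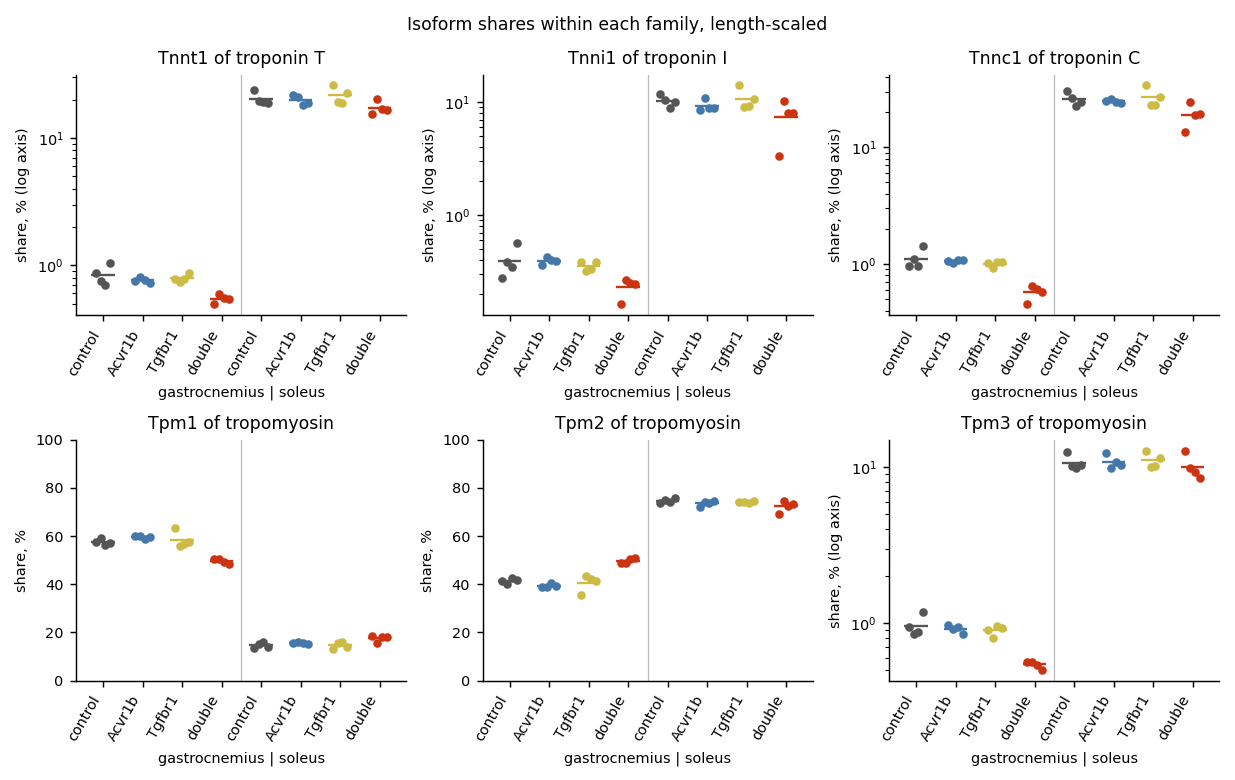
Share of each isoform in its family per kb of exon, in percent, for every library, with group means as bars (log axis for the slow forms, axis from 0 to 100% for Tpm1 and Tpm2). In the gastrocnemius, the 4 double KO libraries lie above all 12 others in Tpm2 and below all 12 others in the slow forms.

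Neither single KO gave a called member in either muscle by edgeR. In the gastrocnemius of Acvr1b KO mice all 10 log2 changes were below 0, from −0.34 (Tnnt1, SE 0.15) to −0.14, with 2 members at an unadjusted p under 0.05, as had 4.42% of all genes, and 0.0285% of all genes called. The libraries of this muscle that stand apart are control 1 and double KO 1. A fit without both gave values between −0.23 (Tnni1) and −0.02 (Tpm1), with Tnnt1 at −0.17. Tnni1 was above 0, at 0.06, without control 4. Tgfbr1 KO gave values from −0.29 to −0.11 in the gastrocnemius, also all below 0, with 0 members at an unadjusted p under 0.05, against 6.0% of all genes, and 0.171% of all genes called. In the fit without control 1 and double KO 1 they lay between −0.34 (Tnni1) and −0.01 (Tpm1). Both comparisons use the same 4 controls, of which control 1 was the highest library in 8 of the 10 members. DESeq2 likewise called 0 members in either. Against the single knockouts, the double KO was lower in the same 4 slow genes. Tnnt1 measured 194, 200, 207 and 199 CPM in Acvr1b KO and 179.9, 197, 229 and 223 in Tgfbr1 KO, all above the highest double KO library. The log2 difference of double KO from Acvr1b KO was −0.77 for Tnnt1 (SE 0.15, adjusted p = 0.00174), −0.89 for Tnni1 (SE 0.17, adjusted p = 0.00186), −0.84 for Tnnc1 (SE 0.15, adjusted p = 0.00119) and −0.71 for Tpm3 (SE 0.12, adjusted p = 0.000918). From Tgfbr1 KO it was −0.82, −0.79, −0.79 and −0.73 in the same order (largest adjusted p = 0.00612). Tpm2 was higher in double KO than in Acvr1b KO, with 4422 to 5836 CPM against 3878 to 4389 (log2 0.39, SE 0.12, adjusted p = 0.0371), but this call was lost in 7 of the 8 fits that left out 1 library (highest adjusted p = 0.0987). It was kept without the libraries that stand apart (0.46, adjusted p = 0.00258). In that fit Tpm2 was also called higher than in Tgfbr1 KO (0.36, adjusted p = 0.0161), and Tnnt3 was called lower than in Acvr1b KO (−0.27, adjusted p = 0.0197) and in Tgfbr1 KO (−0.26, adjusted p = 0.0308). The slow genes then stood at −0.75 to −0.66 against Acvr1b KO and −0.75 to −0.64 against Tgfbr1 KO, all called. In all, 5 members were called against Acvr1b KO, where 16.3% of all genes were, and 4 against Tgfbr1 KO, where 12.9% were.

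The departure of the double KO from the sum of the single effects was tested in the same fit. It was −0.65 for Tnni1 (SE 0.24), −0.58 for Tnnc1 (SE 0.21), −0.48 for Tnnt1 (SE 0.21), −0.47 for Tpm3 (SE 0.18) and 0.55 for Tpm2 (SE 0.17) on the log2 scale. No member passed by edgeR (lowest adjusted p = 0.115, for Tpm2), and 2.14% of all genes were called. An unadjusted p under 0.05 was found for 5 of the 10, and for 14.9% of all genes. DESeq2 called 0 as well. Tpm2 passed without double KO 1 (0.62, adjusted p = 0.0464) and without the libraries that stand apart (0.51, adjusted p = 0.041), and Tnni1 passed without control 4 (−0.85, adjusted p = 0.0448), the control with the highest Tnni1.

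In the soleus, where the slow isoforms are abundant, no member was called in double KO by edgeR, nor by DESeq2, where 0.722% of all genes were called. An unadjusted p under 0.05 was found for 2 of 10, near the 12.2% of all genes. The slow genes nevertheless had the lowest values. Tnni1 measured 197, 759, 659 and 712 CPM in double KO 1 to 4 against 857, 896, 816 and 832 in controls (log2 −0.55, SE 0.28, adjusted p = 0.463). Tnnc1 measured 404, 1313, 1143 and 1219 against 1565, 1563, 1486 and 1336 (log2 −0.54, SE 0.26, adjusted p = 0.422). Tpm3 measured 1533, 2517, 2202 and 2233 against 3085, 2901, 2720 and 2660.2 (log2 −0.42, SE 0.16, adjusted p = 0.304). In these 3 genes every double KO library was below every control, as was so, in the lower direction, for 4.38% of all genes. Tnnt1 (1555 to 2614 CPM against 2575 to 3005) overlapped by 1 library (log2 −0.36, SE 0.17, adjusted p = 0.403). The fast genes lay close to control, at −0.08 for Tnnt3 and Tnni2, −0.04 for Tnnc2 and −0.04 for Tpm1 on the log2 scale, and Tpm2 at −0.32 (SE 0.19).

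Much of this spread lay in 1 soleus library. Double KO 1 had 197 CPM of Tnni1, 404 of Tnnc1 and 4035 of Tpm2, where the other 3 double KO libraries had 659 to 759, 1143 to 1313 and 8309 to 9263. Its cardiac Tnnt2, the troponin T also made in developing and regenerating fibres, was 22.1 CPM (1017 counts) against 6.32 to 6.46. Other markers moved with it in the same library. The mean log2 level of 13 developmental and regenerating-fibre genes was 1.97 above the control mean, against −0.06 to 0.25 in the other 3. The mean of 6 macrophage markers was 1.21 above it, against −0.14 to 0.47, and that of 15 other slow-fibre genes was −1.53 relative to it, against −0.06 to −0.04. Lists outside slow fibres were low in this library as well. The means were −0.64 for other fast-fibre genes (0.03 to 0.61 in the other 3) and −1.05 for other thin-filament genes (0.01 to 0.07). Skeletal fibre markers stood at −0.63 (−0.02 to 0.18), endothelial markers at −0.81 (0.01 to 0.27) and smooth muscle markers at −0.82 (−0.07 to 0.06). The part of all these lists in the troponin levels was not tested. Without this library alone, the log2 changes of the soleus were −0.27 for Tnni1, −0.29 for Tnnc1, −0.30 for Tpm3 and −0.24 for Tnnt1, and that of Tnnt2 turned from 0.20 to −0.52. Without all the libraries that stand apart, Tnnt2 was called lower (−0.52, SE 0.10, adjusted p = 0.0102), with 6.32 to 6.46 CPM against 8.36 to 9.71 in controls. This was not particular to double KO. In that fit Tnnt2 stood at −0.48 in Acvr1b KO and −0.34 in Tgfbr1 KO, neither called. All Tgfbr1 KO libraries (6.58 to 7.75 CPM) and Acvr1b KO 2 to 4 (5.77 to 7.24) also lay below every control. For double KO in the same fit, Tnnc1 stood at −0.29 (SE 0.09, adjusted p = 0.13) and Tpm3 at −0.30 (SE 0.09, adjusted p = 0.111).

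**Figure D4:**
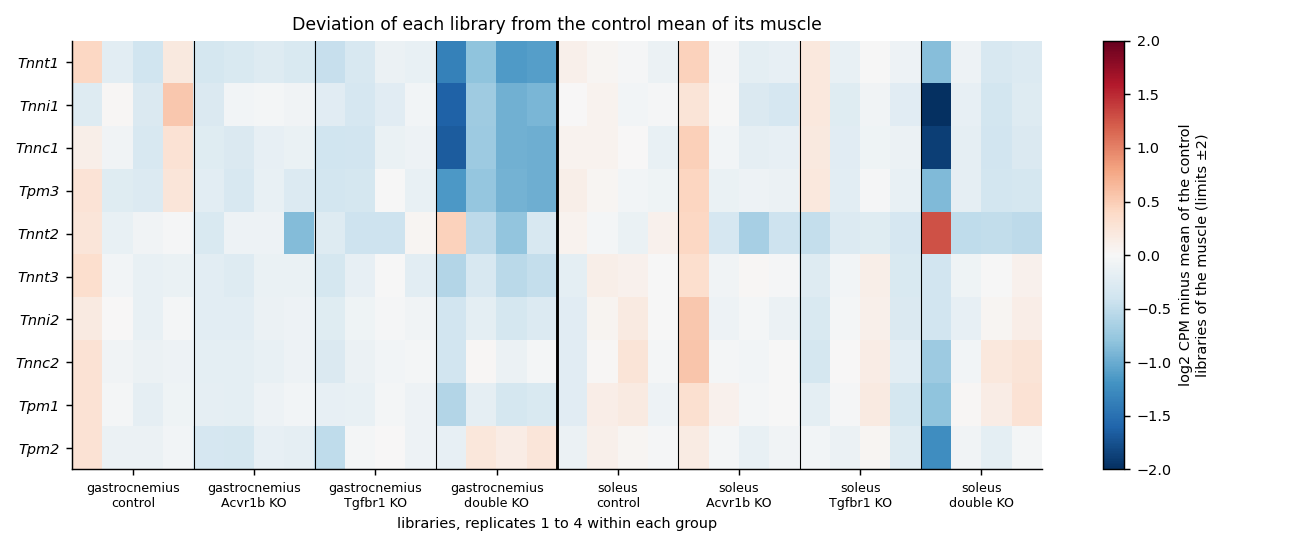
Log2 CPM of each member in each library minus the mean of the control libraries of that muscle, with libraries in columns, replicates 1 to 4 from left to right within each group, and colours limited to ±2. The slow genes are blue in all 4 gastrocnemius double KO libraries, and soleus double KO 1 stands out with low Tnni1 and Tnnc1 and high Tnnt2.

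Single knockouts in the soleus also gave 0 called members by edgeR and by DESeq2, with 0 members at an unadjusted p under 0.05 in both (1.95% of all genes in Acvr1b KO and 2.26% in Tgfbr1 KO). Values in Acvr1b KO ran from −0.18 to 0.13 (0.022% of all genes called) and in Tgfbr1 KO from −0.33 (Tnnt2) to −0.01 (0.0496%). Acvr1b KO 1 had the highest level of its group in all 10 members, with Tnni2 at 4509 CPM against 2862 to 3004 in the other 3 and Tnnc1 at 2070 against 1317 to 1433. Its fibroblast markers summed to 233 CPM against 912 to 1151 in the other 3, and its macrophage markers to 18.1 against 49.2 to 62.2. Endothelial markers went the other way, at 475 against 306 to 336 CPM. The part of these markers in its member levels was not tested. In the fit without Acvr1b KO 1 and double KO 1, all 10 values of Acvr1b KO were below 0, from −0.48 (Tnnt2) to −0.01 (Tpm1). With all libraries, 3 of 10 were below 0. Against the single knockouts, soleus double KO gave 0 called members by edgeR and by DESeq2. By edgeR, 0.127% of all genes were called against Acvr1b KO and 0.0496% against Tgfbr1 KO, and 3 members and 1 member had an unadjusted p under 0.05, beside 11.2% and 9.13% of all genes. The lowest values were −0.60 for Tnnc1 (SE 0.26) against Acvr1b KO and −0.49 for Tnnc1 (SE 0.26) against Tgfbr1 KO. Without the libraries that stand apart these were −0.14 and −0.23. Departure from additivity in the soleus ran from −0.55 to 0.71 with 0 members called and 0 at an unadjusted p under 0.05 (3.38% of all genes), and 0.0% of all genes were called. Both ends rested on the libraries that stand apart, without which the range was −0.13 (Tpm3) to 0.295 (Tnnc2).

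Whether the double KO effect differed between muscles was tested in 1 fit of all 32 libraries. The soleus effect minus the gastrocnemius effect was 0.75 for Tnnt1 (SE 0.23, adjusted p = 0.169), 0.56 for Tpm3 (SE 0.21), 0.52 for Tnnc1 (SE 0.32), 0.50 for Tnni1 (SE 0.35) and −0.43 for Tpm2 (SE 0.24). No member passed by edgeR or DESeq2, where 0.732% of all genes were called. An unadjusted p under 0.05 was found for 3 members and for 8.82% of all genes. Without soleus double KO 1 the value for Tnnt1 was 0.88 (adjusted p = 0.0315), and without all libraries that stand apart it was 0.65 (adjusted p = 0.0351). The log2 difference between the muscles was 4.11 to 4.23 in the slow genes of double KO mice, against 3.47 to 3.65 in controls. All 10 members were called again, where 39.7% of all genes were. Tpm2 stood at 0.51 (SE 0.17, adjusted p = 0.0186). Its libraries overlapped through soleus double KO 1 alone (4035 CPM, against 4422 to 5836 in the gastrocnemius). It was not called without gastrocnemius double KO 1 (adjusted p = 0.0684) or without soleus double KO 2 or 4 (0.0747 and 0.0758). The call was also lost in a fit restricted to the 2 groups (0.177). Without all libraries that stand apart, all 10 members were called, Tpm2 included.

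**Figure D5:**
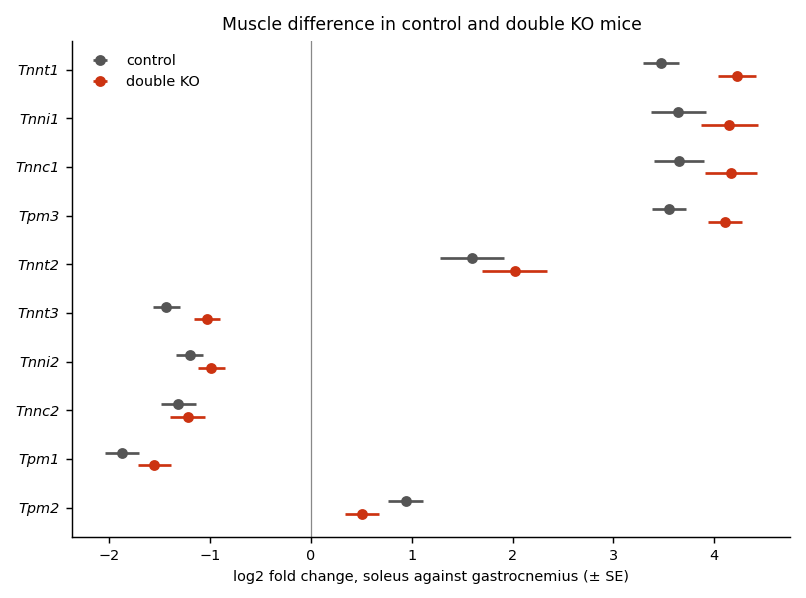
Log2 fold change of soleus against gastrocnemius for each member (± SE), in control and in double KO mice. The slow genes lie at 3.47 to 3.65 in controls and 4.11 to 4.23 in double KO, the fast genes to the left of 0 in both.

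The other genes of the thin filament and of the fibre types put these values in place. Over all genes tested in the double KO gastrocnemius, 11.4% were called higher and 9.59% lower, and in the soleus 0.722% were called. Of 19 other thin-filament genes, 2 were higher and 5 lower in the double KO gastrocnemius (median log2 −0.27). Cardiac actin, Actc1, rose from 146 to 1272 CPM (log2 3.13, adjusted p = 1.58e-05). The leiomodin Lmod2, which lengthens thin filaments, fell by 0.96 on the log2 scale (adjusted p = 0.0103) and by 0.85 in the soleus (adjusted p = 0.028), where it was the only one of the 19 called. Nebl, a nebulin relative, fell by 1.72 (adjusted p = 0.00922) at a low level, from 0.492 to 0.147 CPM. Of 14 tested other slow-fibre genes, 7 fell and 0 rose (median −0.66), among them myoglobin, Mb (−1.07, adjusted p = 9.25e-05), Ankrd2 (−1.02) and Myh7b (−0.97). Of 15 other fast-fibre genes, 6 fell and 1 rose (median −0.25), with Smtnl1 (−0.67), Mylk2 (−0.66) and Myh2 (−0.58) the lowest. Of the 10 skeletal fibre markers, which include Mb and Myh2, 6 fell and 1 rose (median −0.50). Their summed level was 118100 to 134900 CPM against 145100 to 173600 in controls. Among 20 regulators of fibre-type genes, 5 rose and 4 fell. Vgll2, a TEAD cofactor, fell by 1.11 on the log2 scale, and Hdac4, a repressor of MEF2 factors, rose by 1.02. Of 10 tested developmental and regenerating-fibre genes, 7 rose and 2 fell (median 1.62), with Sln at 4.36, Actc1 at 3.13 and Myod1 at 2.26. The summed level of all 13 genes listed was not higher, at 4469 to 6186 CPM against 4951 to 9066 in controls. Of 6 macrophage markers 4 rose (median 0.68), with a summed level of 48.6 to 81.7 CPM against 36.1 to 42.2 in controls. Of 6 endothelial markers 3 fell and 0 rose (median −0.26, summed 158.5 to 187.4 CPM against 204.4 to 218), and of 9 smooth muscle markers 3 fell and 1 rose (median −0.31, summed 274.5 to 384.8 CPM against 349.8 to 469.9). Of 8 fibroblast markers 2 rose and 0 fell (median −0.06), and of 7 nerve markers 0 were called (median −0.60, summed 32.4 to 38.7 CPM against 39.6 to 62.7). Their part in the troponin results was not tested.

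Other genes of the same families lie outside the list. Tpm4, a tropomyosin best known from non-muscle cells, had 35.3 ± 4.05 CPM in double KO and 44.2 ± 5.94 in control gastrocnemius. Tpm3-rs7, a Tpm3-related sequence on chromosome 14, shares sequence with it and followed it, with 15.9 ± 1.75 against 27.9 ± 7.42 CPM. In the soleus it was higher, at 275 ± 17.6 CPM in controls and 214.5 ± 42.8 in double KO. Reads that align to several places were split, which leaves fractional counts. Such counts were seen for Tpm3 in 31 of 32 libraries, Tnnt3 in 32, Tpm1 in 25, Tnnt1 in 18, Tpm2 in 17, Tnnc1 in 16 and Tnni1 in 0. How much of each level came from split reads was not measured, so these numbers do not rank the certainty of the levels.

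Across the 16 libraries of a muscle, some members followed each other closely. These correlations describe the libraries, which share scaling and the split into genotypes. Tnnt1 and Tpm3 had r = 0.99 in the gastrocnemius and 0.98 in the soleus (log2 CPM, n = 16), and Tnnt3 and Tnni2 had 0.96 in both. Tnnt1 against the fast Tnnc2 gave 0.52 in the gastrocnemius and 0.54 in the soleus. Without the libraries that stand apart (n = 14) these turned to −0.16 and −0.60. The other fast genes followed Tnnt1 more closely in the gastrocnemius, at 0.91 for Tnnt3, 0.90 for Tnni2 and 0.90 for Tpm1. There they kept 0.86, 0.82 and 0.86 without those libraries. Their soleus values of 0.50, 0.49 and 0.57 turned to −0.36, −0.42 and −0.38. For Tpm2 and Tnnt1 in the gastrocnemius r was −0.09 with all libraries and −0.51 without those that stand apart. In the gastrocnemius, 6515 protein-coding genes with a mean of at least 10 CPM were compared with the members. Those most like Tnnt1 were Myh6 (0.98), whose counts may share reads with other myosins, Ostn (0.97) and Tpm3-rs7 (0.97). Those most like Tnnc1 were Myh7 (0.97), Myh6 (0.97) and Myh2 (0.96), and for Tnni1 they were Adamtsl4 (0.96), Evc (0.96) and Atp2a2 (0.95). Tnnt3 was most like Neb (0.98), Ybx1 and Kiz, Tpm1 like Ryk (0.97), Ttn and Asph, Tnnc2 like Larp1b (0.94), Hrc and Hspb6, and Tpm2 like Ap1ar (0.91), Dpy30 and Slc7a2. In the soleus the regulatory light chain Myl2 was the gene most like both Tnni1 (0.99) and Tnnc1 (0.98), while Tnnt3 was most like Ckm (0.89) and Tpm1 like Acta1 (0.93). The most alike genes were sought over all 16 libraries of a muscle only, with those that stand apart included. How far those libraries set these r values was not tested.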

How the data were processed

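PolyA RNA libraries of 32 muscles were grouped by the tissue and genotype in the labels, 4 per group. The deposited table gives an estimated count for every gene. The authors ran featureCounts 2.0.1 against Ensembl 102 gene models (GRCm38) in reverse-stranded mode (setting 2) and split multi-mapping reads as fractions, per the file headers. Cutadapt, HISAT2, FastQC 0.11.9 and DESeq2 appear in the submitters' processing notes without a stated role. Symbols came from GENCODE M21 for 55227 of 55487 identifiers.

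Estimated counts were rounded to whole numbers, and each muscle was fitted with all its 16 libraries in edgeR 4.0.16 (R 4.3.3): filterByExpr, TMM, estimateDisp, robust glmQLFit and glmQLFTest, 2-sided, with Benjamini-Hochberg adjustment over all genes tested (17536 in gastrocnemius, 18143 in soleus, 18726 in the fit of all 32) and a threshold of 0.05. The standard error is the log2 fold change divided by the square root of F. CPM levels use TMM factors of all 32 libraries; levels per kb divide by the table's gene length. The test was also run on simulated data, and its outcome there is not reported here. Alternatives were DESeq2 1.42.0, RLE factors, no filter, only the compared groups, a block, and leaving out libraries; leaving out all libraries that stand apart was chosen after the data were seen. Intervals for depth are not given, since the spread between libraries is larger than counting error at these levels. The labels give each library its own mouse within a muscle. The soleus and gastrocnemius of 1 mouse share the animal number in the labels (r of their deviations from the group means 0.03 to 0.58, above 0.1 in 11 of 16 mice), which paired the muscles for the animal block.

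The members and gene lists were chosen with earlier results of these data known. All 10 members are reported. A gene of the list of fibre-type regulators is not reported here by name. From a list, no more than 3 called genes per muscle were named, those that changed most, and for each member up to 3 genes by Pearson r. Promoter windows came from RefSeq (GRCm38.p6) by symbol and matched 8 of 10 members, all but Tnnt3 and Tnni2.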

Additional observations from a re-analysis of the deposited data

Results flagged for a closer look

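In 80 groups of 4 libraries (10 members in 8 groups), 8 held a library whose gap to the next was unusually large for the group's range, and chance alone flags about 1 in 20 groups. In soleus Acvr1b KO 1, Tnni2 was 4509 CPM (others 2862 to 3004), Tnnc1 2070.0 (1317 to 1433), Tnnc2 4782 (3126 to 3240.0) and Tpm3 3823 (2585 to 2650.0). In gastrocnemius control 1, Tnnc2 was 9913 CPM (7442 to 7706) and Tpm2 6051 (4539 to 4749). In soleus double KO 1, Tnnt2 was 22.1 CPM (6.32 to 6.46). In gastrocnemius Acvr1b KO 1, Tnni1 was the lowest at 53.9 CPM (63.0 to 64.4). All but the last of these libraries also stood apart over the whole transcriptome.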

How the results depend on the processing

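Of 2320 refits of a member in a comparison, 2292 kept the side of the threshold and no called direction turned, 17 lost a call, 10 gained one and 1 reversed, with a called value of the other sign. Among members not called, the sign turned in 111 refits, that one included. The reversed value is that of Tnnt2 in double KO against control, soleus, which was −0.52 without the libraries that stand apart. The number of members called moved from 0 to 1 in that comparison, in the departure from additivity in gastrocnemius and in the difference of the double KO effect between muscles when those libraries were left out, from 5 to 6 against Acvr1b KO and from 4 to 6 against Tgfbr1 KO in gastrocnemius. Leaving out 1 library gave 0 to 1 called members for additivity in gastrocnemius and 0 to 1 for the difference between muscles. With the replicate block within a muscle, 7 members were called in double KO against control, gastrocnemius, 4 against Acvr1b KO (Tpm2 lost, adjusted p = 0.0581) and 4 against Tgfbr1 KO. Equal numbers belong to different mice and their deviations did not go together (r −0.18 to 0.26 in gastrocnemius and −0.24 to 0.13 in soleus). With the animal as a block in the fit of both muscles, which is paired by mouse, 10, 10 and 0 members were called, and no call changed. Counted without division by length, the mean shares in control and double KO gastrocnemius were 74.7 and 68.6% for Tpm1, 24.1 and 30.7% for Tpm2, 1.17 and 0.703% for Tpm3, 1.16 and 0.757% for Tnnt1, 0.948 and 0.558% for Tnni1 and 1.44 and 0.744% for Tnnc1. The genes called over the whole table in soleus double KO against control ranged from 35 with only the compared groups to 499 without the libraries that stand apart (131 as reported, 401 by DESeq2). Tnnt2 had as few as 38 counts in a library, which limits its precision. The cause of these shifts was not tested.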
